A study of Ictidomys tridecemlineatus with 15 samples.

Results

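Rods of the retina of the 13-lined ground squirrel (13LGS), a day-active rodent with a cone-dominant retina, are described here as the cells that the deposited cell table annotates as rods. The rule found 150 rods among 53394 cells, which were 0.323% of the 46474 cells in the libraries used. The rods lay in 4 libraries of captive-bred animals, where P is the postnatal day. There were 16 and 14 rods in the libraries P12a and P12b, 31 rods in the P17 library and 89 rods in the P21 library. All of these libraries came from whole retina, and no treatment or genotype is given for any of them. Age is the only difference between the groups that the labels give. For single-cell work the paper describes retinas as methanol-fixed or flash-frozen, without tying either to a library. Each library was a 10x Chromium 3′ v3.1 library, in which PCR copies of an mRNA molecule are counted once by means of its unique molecular identifier (UMI). No source used here says how many animals went into a library, and P17 and P21 are represented by 1 library each, so age and library cannot be told apart at those ages.

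Rods are the photoreceptors of dim light, and cones those of daylight and colour. Both arise from the same pool of photoreceptor precursors, and in mammals the transcription factors NRL and NR2E3 direct a precursor to become a rod and repress cone genes. Rods and cones share much of their machinery, such as the ribbon synapse and the ciliary outer segment, but use separate sets of opsins, transducins, phosphodiesterases and channels for phototransduction. The label was not checked against the named rod markers Nrl, Nr2e3, Gnat1, Pde6b and Cnga1, because the list of gene names (30265 entries) is not paired with the 34181 rows of the count matrix. Genes are therefore called by the number of their matrix row (the first row is 1), and their roles are not stated.

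Across the series, 14 libraries at 9 ages were used, and library medians ran from 1548 to 11868 UMIs per cell. A total of 263 of 46210 cell barcodes occurred in more than 1 library, among them 1 rod barcode. This barcode belonged to a rod in the P17 library and to a cone in the P21 library.

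Rods were first annotated at P12 and remained a small part of the photoreceptors at each later age. They made up 0.375% of all cells in P12a (95% Wilson interval 0.231 to 0.609%) and 0.354% in P12b (0.211 to 0.593%). The share was 0.587% in P17 (0.414 to 0.833%) and 1.76% in P21 (1.43 to 2.16%). Among rods and cones together, rods were 2.73% of 586 cells in P12a (1.69 to 4.39%) and 3.52% of 398 cells in P12b (2.11 to 5.82%). They were 7.11% of 436 photoreceptors in P17 (5.05 to 9.92%) and 5.47% of 1626 in P21 (4.47 to 6.69%). The number of cones per rod ranged from 13.1 in P17 to 35.6 in P12a. The rod share of all cells was higher in P21 than in P17 with intervals that did not overlap, whereas the intervals of the share among photoreceptors overlapped between these libraries. With precursors counted in the denominator, the P12 values were 2.57% and 2.85%. These intervals cover counting error only, and libraries of 1 age can differ by more. In each of the 10 libraries from E18 to P8 there was no annotated rod, which allows a share of up to 0.0543% of cells in the largest of them (E18, 5522 cells) and up to 0.219% in the smallest (the P8b library, 1369 cells).

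**Figure D1:**
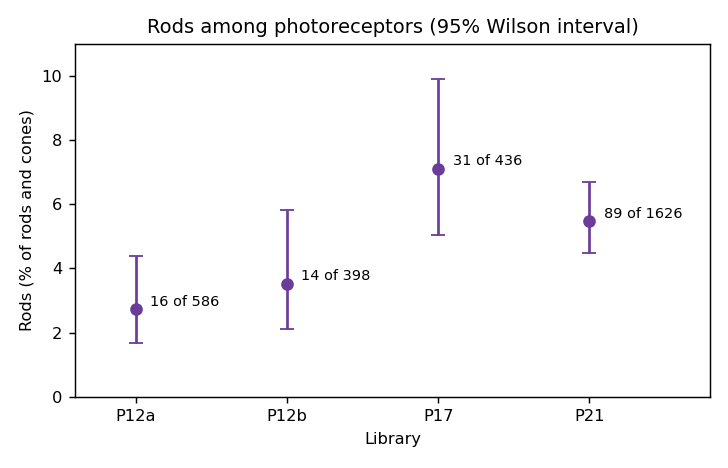
Rods as a percentage of rods and cones (vertical axis) in the 4 libraries with rods (horizontal axis). Points are the shares, bars their 95% Wilson intervals, and the numbers beside the points are rods of all photoreceptors. The shares lie between 2.73% (P12a) and 7.11% (P17), and the P17 and P21 intervals overlap.

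Rods carried few UMIs. The median rod had 2052 UMIs in P12a, 2493 in P12b, 2372 in P17 and 1891 in P21. The median cone of the same libraries had 3256, 5256, 3144 and 2362 UMIs. In both P12 libraries rods had the lowest median of the 10 classes with at least 10 cells, and in P17 and P21 the second lowest after bipolar cells. The log2 ratio of the rod median to the cone median was −0.67 in P12a, −1.08 in P12b, −0.41 in P17 and −0.32 in P21. Its mean was −0.62 ± 0.34 (SD, n = 4 libraries), a rod median at 65.2% of that of cones, and it was below 0 in 4 of 4 libraries. Flipping the signs of the 4 ratios in all ways (exact permutation test, two-sided) gave p = 0.13, the smallest p that 4 pairs allow. RNA content of the cells and the efficiency of their capture cannot be told apart here.

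**Figure D2:**
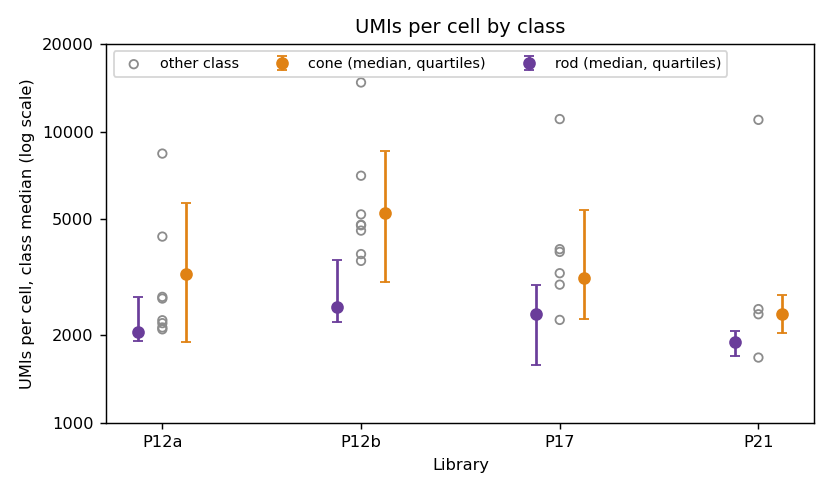
UMIs per cell (log scale, vertical axis) by library (horizontal axis). Purple and orange points are the medians of rods and cones with bars from the lower to the upper quartile, and open circles are the medians of the other classes with at least 10 cells. The rod median lies below the cone median in all 4 libraries.

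At equal depth the number of detected rows per cell was close in rods and cones. After each cell was thinned to 1000 UMIs, the median rod had 709 detected rows in P12a, 672.5 in P12b, 676 in P17 and 676 in P21. The median cone had 696, 665, 686 and 664 rows. The log2 ratio ran from −0.02 in P17 to 0.03 in P12a, with a mean of 0.01 ± 0.02 (SD, n = 4) and rods lower in 1 of 4 libraries (exact sign-flip permutation p = 0.375). Without thinning, rods had fewer detected rows in all 4 libraries (mean log2 ratio −0.47 ± 0.23), so the direction follows the depth. The thinning left out 5 of 31 P17 rods, 5 of 89 P21 rods and no P12 rod.

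A compact set of rows set rods apart from all other classes. In the P21 library, 519 rows had at least 50 UMIs in rods, and 14 of them were at least 8-fold higher in the summed rods than in the highest other class (ratio of UMIs per 1000000 UMIs of the summed cells, CPM, with 10 CPM added). The last row inside this limit had a log2 ratio of 3.55 and the first row outside it 2.59, so the limit falls in a gap. These rows were chosen on P21, and their P21 values are a description. The rod label of every library was made from expression in the same cells. High levels of these rows in the rods of other libraries are therefore favoured by the annotation, and are a description too. In the 3 libraries that did not choose them, the 14 rows together still reached 6400.3 CPM in P12a rods, 6908 CPM in P12b rods and 13098 CPM in P17 rods. In cones of the same libraries they reached 206, 248 and 409.5 CPM. The highest class other than rods, cones and photoreceptor precursors held 26.9, 77.9 and 52.4 CPM. The ratio of rods to cones was therefore 31.1, 27.9 and 32.0 in these 3 libraries. In P21 itself the sums were 52349 CPM in rods and 546 CPM in cones. Without the P17 rod whose barcode recurs, the P17 sum was 13197 CPM.

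The rods' level of these 14 rows differed between the libraries. From the P12 libraries to P17 the sum was 2.05-fold (against P12a) and 1.90-fold (against P12b) higher. In this step 10 and 11 of the 14 rows were higher, and the others were not. From P17 to P21 the sum was 4.0-fold higher, with 14 of the 14 rows higher. All 14 rows were higher in P21 than in either P12 library, a direction that their choice in P21 favours. In P17, 14 rows pass the 8-fold limit with a lower minimum of 10 rod UMIs, and 10 of them were also in the P21 set. Of these 14 rows, 12 were higher in P21 rods than in both P12 libraries. The same held for 36.3% of the 2856 rows with at least 20 rod UMIs. No test between the ages follows from these counts, because P17 and P21 each rest on 1 library. In the test of the age change over all rows described further on, 8 of the 14 rows passed the filter on low counts and none was called.

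The most abundant of these rows, row 27062, carried much of the rise. Its level in rods was 1659 CPM in P12a, 2096 CPM in P12b, 6777 CPM in P17 and 25943 CPM in P21. Cones of the same libraries held 65.1, 87.6, 291 and 257 CPM. The rods of the 3 ages did not overlap in these sums. At P12, 8 of 16 and 10 of 14 rods had at least 1 UMI of row 27062, against 11.1% and 12.5% of cones and 1.82% and 0.864% of bipolar cells. At P17 and P21 all 31 and all 89 rods had at least 1 UMI. The median rod had 0.5 and 4.5 UMIs of this row in the P12 libraries, 11 UMIs in P17 and 48 UMIs in P21. In P12a and P12b the median bipolar cell was no shallower than the median rod, at 2125 and 3797 UMIs against 2052 and 2493. In P17 and P21 it was shallower, at 2256 and 1675 UMIs against 2372 and 1891.

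In P21, UMIs of row 27062 were also spread over cells of all kinds. A UMI of this row was found in 22.8% of cones, 19.6% of bipolar cells, 17.3% of amacrine cells and 15.5% of Müller glia. Thinned to 1000 UMIs, the expected shares were 11.1% in cones and 11.2% in bipolar cells, so that by this share P21 cones did not stand above bipolar cells. By the 14 rows together they did: 61.5% of P21 cones and 27.8% of bipolar cells had at least 1 UMI, and their sums were 546 and 167 CPM. In P12a, P12b and P17 the thinned share in cones was 3.90%, 4.15% and 5.48%, above the 0.708%, 0.261% and 0.803% in bipolar cells. Within the UMIs of the 14 rows, row 27062 took 25.9% in P12a rods and 31.6% in P12a cones, and 49.6% in P21 rods and 47.0% in P21 cones. In P17 it took 51.7% in rods (95% Wilson interval 48.7 to 54.8%) and 71.1% in cones (67.7 to 74.3%). Both intervals cover counting error of UMIs only, and the spread between cells was not tested. A single P17 cone held 98 of the 510 UMIs of this row in P17 cones. The part of free RNA and of doublets in the cone values was not tested.

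The rows whose levels across classes were most like row 27062 were compared over 34 sums of the 4 libraries with at least 10 cells each. Among 518 other rows with at least 50 UMIs in P21 rods, row 27956 had the highest Spearman correlation (0.91), followed by row 30768 (0.88). Row 27956 was higher in cones than in rods in every library, with 629, 1297, 3146 and 3825 CPM in cones and 263, 115, 633 and 445 CPM in rods. Row 30768 was a rod row, with 342, 161, 469 and 2628 CPM in rods and at most 17.3 CPM in cones. The sums share libraries and depth, and these correlations are a description.

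Cell by cell, the annotation and the 14 rows matched closely. Because the annotation was itself made from expression in these cells, this match is a description. Every rod had at least 4 UMIs of these rows. They made up 0.181 to 1.77% of the UMIs of a P12a rod (median 0.481%) and 0.234 to 1.89% in P12b (median 0.491%). In P17 the range was 0.271 to 3.07% (median 1.26%) and in P21 1.42 to 7.63% (median 5.18%). Of the 89 P21 rods, 88 lay above the highest P12 rod and 83 above the highest P17 rod. In P17, 13 of 31 rods reached the lowest P21 rod, and in each P12 library 2 rods did. The rows were chosen for their level in P21 rods, which favours this order, and P21 is 1 library.

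**Figure D3:**
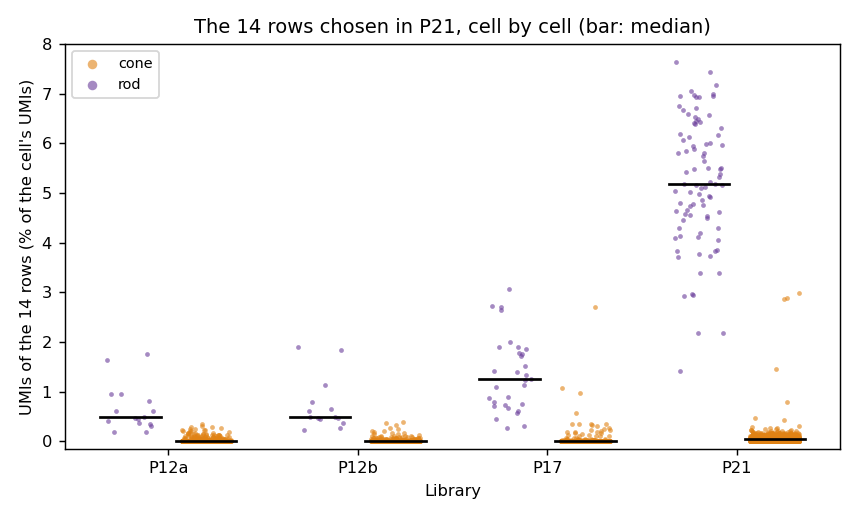
Share of each cell's UMIs that falls on the 14 rows chosen in P21 (vertical axis, %) for rods (purple) and cones (orange) of the 4 libraries (horizontal axis). Each point is a cell and black bars are medians. The rod median is 0.481% in P12a, 0.491% in P12b, 1.26% in P17 and 5.18% in P21. Some cones of every library lie at or above the lowest rod: 13 in P12a, 5 in P12b, 10 in P17 and 4 in P21.

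Few cells outside the annotation reached the rods' level. In P12a, 13 of 4249 other cells had at least the share of the lowest rod, in P12b 5 of 3942, in P17 11 of 5246 and in P21 4 of 4968. All of them were cones except 1 amacrine cell in P17. Only 1 of these cells, a P17 cone at 2.70%, also exceeded the median rod of its library. In P21 the 4 cones reached up to 2.98%. The 1 cone with the most UMIs of the 14 rows held 99 of the 717 UMIs of P17 cones and 179 of the 2177 UMIs of P21 cones. Without it, the cone sum was 356 CPM in P17 and 503 CPM in P21.

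Before P12, low levels of the same rows were found in photoreceptor precursors and in P8 cones. In the embryonic libraries the 14 rows reached 0 to 15.4 CPM in precursors, below the horizontal cells of the same library in every case. Precursors held 20.8 CPM at P4, where the highest class outside the photoreceptor lineage held 9.53 CPM. At P8 they held 97.4 CPM in one library (highest other class 13.0 CPM) and 32.0 CPM in the other (102 UMIs in 669 cells). In the latter library horizontal cells were at 76.9 CPM from 3 UMIs in 19 cells, and the other classes at 15.8 CPM or less. The cones of the former library held 110.7 CPM (28 UMIs in 82 cells), close to its precursors. In P12a and P12b precursors held 110 CPM (20 UMIs in 36 cells) and 98.0 CPM, against 6400.3 and 6908 CPM in rods. At P4, 2 cells (1 cone and 1 precursor) and at P8 1 cone had a share at or above that of the lowest P12 rod. No cell of the 7 embryonic libraries did, nor did any of the 6920 cells of P1.

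The rows that passed the 8-fold limit and the minimum of UMIs were in part different at P12 and at P21. In the pooled P12 rods, 11 rows passed the 8-fold limit (with at least 10 rod UMIs), and P17 and P21 played no part in this choice. The choice in P21 asked for at least 50 rod UMIs. Each of the 7 rows chosen in P21 alone had fewer than 10 UMIs in the pooled P12 rods. The minimum of UMIs thus left them out at P12 whatever their ratio. In P17 rods, 10 of the 11 rows were still at least 8-fold above every other class, and in P21 rods 7 were. Of the 11 rows, 3 were lower in P21 rods than in P17 rods, as were 48.5% of the 2856 rows with at least 20 rod UMIs. The 7 rows that were also in the P21 set of 14 summed to 6058 and 6632 CPM in the P12 libraries, 12402 CPM in P17 and 43812 CPM in P21. The other 4 rows summed to 1765 and 1865 CPM, 925 CPM and 1604 CPM, and the 3 lower rows were among them. Splitting the 11 rows by the P21 set uses the P21 values, so the contrast between both parts is a description.

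The 3 lower rows were nearly absent from P21 rods. One of them was at 606 and 760 CPM in P12a and P12b rods, 228 CPM in P17 and 18.3 CPM in P21 (3 UMIs). Another was at 211 and 438 CPM, 101 CPM and 6.10 CPM (1 UMI). The last, row 30417, was at 711 and 391 CPM in the P12 libraries, 25.3 CPM in P17 (2 UMIs) and had no UMI among 163975 in P21 rods. In cones, row 30417 was at 47.0, 34.5, 41.1 and 4.52 CPM. The remaining row of the 4, in contrast, was higher in P21 in both photoreceptor types, at 1580 CPM in rods and 292 CPM in cones.

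**Figure D4:**
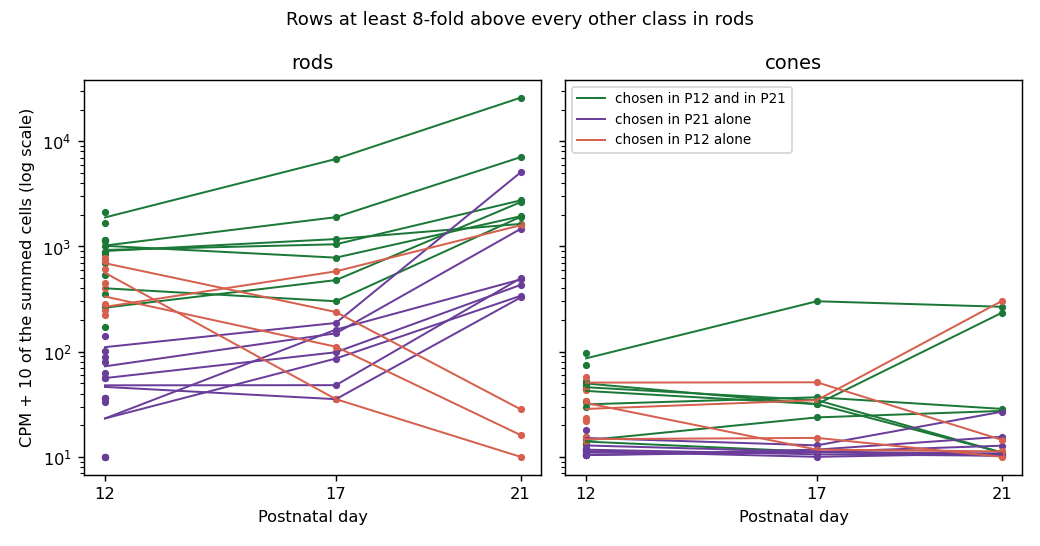
Level (CPM plus 10, log scale, vertical axis) of the 18 rows that were at least 8-fold above every other class in P12 or P21 rods, against postnatal day (horizontal axis), in rods (left) and cones (right). Points are libraries and lines run through the mean at P12. The 7 rows chosen at both ages and the 7 chosen in P21 alone are higher in P21 rods than in P17 rods, and 3 of the 4 rows chosen at P12 alone are lower. Rows chosen in P21 alone had too few UMIs in P12 rods to be chosen there.

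The age change was tested over all rows on the summed rods, with P17 and P21 (n = 2) against P12 (n = 2). By edgeR's quasi-likelihood test with Benjamini-Hochberg adjustment, 1 of 1103 rows (0.0907%) passed at an adjusted p below 0.05, and 88 rows had an unadjusted p below 0.05. The row that fell was row 30417, with a log2 fold change of −5.77 ± 0.89 (SE) and an adjusted p of 0.0272. The fitted value depends on the prior count, since the later rods held 2 UMIs of this row. From the counts alone, 44 UMIs of 81392 at P12 against 2 of 242916 later, the ratio was 65.7 (95% interval 17.1 to 559, counting error only). The call was lost when P12a, P12b or P17 was left out (adjusted p = 0.366, 0.646 and 0.0867 in edgeR). It was also lost without cells above 2 times the median UMI count of their library and class (0.312) and with a looser filter or none (0.388 and 0.773).

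Row 27062 was the row with the smallest p among those that were higher later, at a log2 fold change of 3.07 ± 0.55 and an edgeR adjusted p of 0.0816, and so did not pass. By DESeq2 its adjusted p was 0.00366, and 3 rows were called in all. Row 33723 was at 52.7 and 46.1 CPM in P12 rods, 469 CPM in P17 and 268 CPM in P21 (edgeR adjusted p = 0.143). In cones its levels were close to those in rods, at 48.9 and 63.7 CPM, 392 CPM and 325 CPM. Row 9538 was at 474 and 438 CPM in P12 rods, 127 CPM in P17 and 97.6 CPM in P21 (edgeR adjusted p = 0.143), and at 249, 277, 143 and 192 CPM in cones. The groups did not overlap for either row, but neither passed the test.

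Whether this age change differed between rods and cones was tested with an interaction term in edgeR. No row of 10617 was called (0%), 514 rows had an unadjusted p below 0.05, and DESeq2 also called 0 (125 at an unadjusted p below 0.05). With 2 residual degrees of freedom the result does not show that the types changed alike. The median log2 difference of all rows was 0.32 with TMM scaling and 0.17 with median-of-ratios size factors, so single values are to be read against that shift. The smallest p belonged to row 30417, which was lower later in rods than in cones by comparison (log2 difference −4.51 ± 0.69, edgeR adjusted p = 0.786). Among rows with the opposite sign, row 10959 came first, at 290 and 69.1 CPM in P12 rods and 342 and 140 CPM in P17 and P21 rods, against 542, 186, 165 and 83.1 CPM in cones (log2 difference 2.21 ± 0.35, edgeR adjusted p = 0.786). These 2 rows were among those called when the same fit was run with the package's default moderation, which called 15 rows.

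Rods and cones of the same libraries were then set side by side. The annotation was made from expression in these cells, so the counts are a description. In edgeR with the library as a block, 238 of 8813 rows (2.7%) differed at an adjusted p below 0.05, 84 of them higher in rods (0.953%) and 154 lower (1.75%). The median row was at a log2 ratio of −0.15. Cone sums were far deeper than rod sums (1750740 to 3983782 UMIs against 37967 to 163975). With each cone sum thinned to the rod sum of its library, 65 rows were called, 29 higher and 36 lower. The count was 137, 111, 73 and 92 without P12a, P12b, P17 and P21.

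The rows with the largest ratios that met a mean of 100 CPM and the same sign in every library are given as values. Row 12930 was at 132, 69.1, 177 and 5050 CPM in rods of P12a, P12b, P17 and P21, and at 4.89, 0.758, 1.14 and 2.76 CPM in cones. Row 8920 was at 527, 253, 291 and 1903 CPM in rods and at no more than 4.55 CPM in cones. Row 583 went the other way, at 141, 126, 375 and 935 CPM in cones and 79.0, 0, 12.7 and 12.2 CPM in rods. Row 18386 was at 68.8, 42.5, 106 and 213 CPM in cones, and at 52.7 CPM in P12a rods (2 UMIs) with no UMI in the other rods. In P12a the levels of these cone rows in rods and cones were closer than in the other libraries. Row 18386 did not pass by DESeq2 (adjusted p = 0.368), nor in edgeR without P17 (0.172), without P21 (0.231) or without the library block (0.142). Row 12930 rose steeply between P17 and P21, and row 583 was higher in P17 and P21 cones than in P12 cones.

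Rods held part of the rows that were high in cones against the classes other than rods. Rows shared by both photoreceptor types can be among them, so these rows do not mark cones against rods. In the P21 library, the 50 rows with the highest level in cones against every class other than rods were taken (at least 9.75-fold), so that rods had no part in the choice. Averaged over the 4 libraries, 27 of these rows were within 2-fold in rods, 20 were over 2-fold lower and 3 were over 2-fold higher. Of the 20 lower rows, 7 were over 8-fold lower. The 50 rows thus fell into those found in both photoreceptors and those low in rods, over a range of log2 ratios from −4.03 to 3.24. Of all 1696 rows with a mean of at least 100 CPM in cones, 93.2% were within 2-fold in rods and 5.96% over 2-fold lower.

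The sums of both kinds of row are given per library as a description, since the rows were split by their mean ratio over the same 4 libraries. The 27 rows within 2-fold summed to 133%, 125%, 115% and 82.4% of the cone level in rods of P12a, P12b, P17 and P21. The 20 lower rows summed to 30.4%, 11.9%, 14.4% and 9.87% of the cone level. Bipolar cells, the highest other class, held 571, 618, 494 and 1137 CPM of the 27 rows, against 6506, 5757, 9045 and 21448 CPM in rods. The 20 rows were at 8490 and 8928 CPM in P12 cones, 18441 CPM in P17 cones and 48936 CPM in P21 cones, and at 2581, 1059, 2660 and 4830 CPM in rods.

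**Figure D5:**
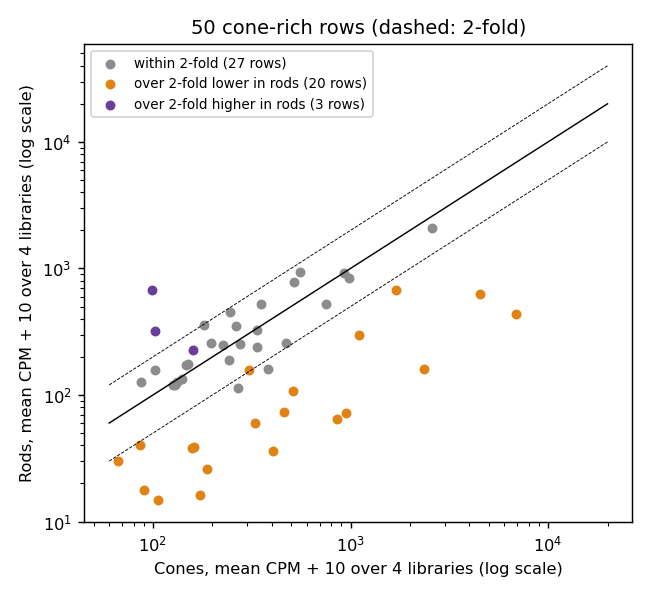
Mean level over the 4 libraries (CPM plus 10, log scales) of the 50 cone-rich rows in cones (horizontal axis) and rods (vertical axis). Each point is a row, the solid line marks equal levels and dashed lines 2-fold differences. Colours follow the mean log2 ratio over the 4 libraries: 27 rows within 2-fold (grey), 20 lower (orange) and 3 higher in rods (purple). The axes show mean levels, so some points lie on the other side of a dashed line than their colour.

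Over the whole profile, rods were closest to cones. With all sums thinned to 37967 UMIs, the Spearman correlation across rows of the rod sum with the cone sum was 0.62 in P12a, 0.58 in P12b, 0.60 in P17 and 0.66 in P21, the highest of all classes in each library. Photoreceptor precursors came next in P12a (0.57) and P12b (0.54), and bipolar cells next in P17 (0.50) and P21 (0.47). P17 and P21 held no annotated precursors, so that class could not be ranked there. Ganglion cells were lowest, at 0.39, 0.37, 0.40 and 0.28. Rows are not independent replicates, and the sums of a library share its depth and free RNA.

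In the deposited embedding of 3 dimensions, rods formed a group of their own that touched only cones. Of the 20 nearest cells of a rod, 93.4% were rods in P12a, 93.9% in P12b, 98.7% in P17 and 100% in P21, and all others were cones. At P12, 5 of 16 and 4 of 14 rods had a neighbour that was not a rod. The P21 rods lay mostly beside rods of their own library (97.9% of neighbours), whereas in P12a and P12b 32.2% and 25.4% of neighbours came from the same library. From the rod median of each library to class medians, the closest class was the photoreceptor precursors, at 3.41, 3.36, 3.77 and 4.48 embedding units. Cones were at 5.91, 5.93, 5.99 and 6.23 units. These class medians were not limited to cells of the same library, and P17 and P21 held no annotated precursor. The values for P17 and P21 are therefore distances to precursors of other ages. The embedding and the annotation were made from the same counts, so these values describe the annotation and do not test it.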

How the data were processed

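The authors processed the reads with Cell Ranger 3.1.0 and Seurat 4.0.4, per the labels and the study's methods, on the 13LGS assembly HiC_Itri_2, joined the libraries with Cell Ranger aggr and named types from cluster markers. Whether aggr evened out depth and how doublets were treated is not given in the sources used here, and no doublet caller was run. The deposited values were UMI counts per row and cell, which were not normalized, and the authors' embedding coordinates, which are scores with no unit. A library was a time point plus a cell-name suffix. The letters a and b carry no replicate number. P1 had more suffixes than samples and was left out of group comparisons. No column of per-sample values was left unused.

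Counts were summed per library and class (at least 10 cells). edgeR 4.0.16 (R 4.3.3) was run on these sums (filterByExpr, TMM, full library sizes, glmQLFit, glmQLFTest), with DESeq2 1.42.0 as an alternative. The SE is the log2 fold change divided by the root of F. The first fit used glmQLFit's default moderation. It gave an infinite prior for both comparisons with cones, and the fit with legacy=FALSE replaced it after the calls of 4 moderation settings had been seen (counts in the closing section). Scripts were tested on simulated counts, in which the age and class fits recovered most 8-fold changes and the interaction fit none. Rows were named by a rule: per comparison at most 2 higher and 2 lower with the largest change past the threshold, at least 100 CPM and no overlap, otherwise the smallest p, plus the most abundant rod row and its 2 closest rows. Members, lists and limits were chosen with earlier results of these data known. The 8-fold limit, the rows chosen at P12 and the cone-rich rows were added after seeing the data.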

Additional observations from a re-analysis of the deposited data

How the results depend on the processing

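For the age change, where 1 row was called, DESeq2 called 3, and 0 were called without a filter, with a total of at least 20 counts or without cells above 2 times the median UMI count of their library and class. Leaving out a library gave 0 to 2 calls (where 1 library is left at an age group, it is assumed to vary like the other group). For rods against cones (238 rows), DESeq2 called 133, no filter 999, a total of 20 counts 756, thinned cones 65 and no library block 40, and leaving out a library gave 73 to 137. The moderation of edgeR, chosen after its calls were seen, mattered too: the package default called 1 row for age, 366 for rods against cones and 15 for the interaction, the default with robust estimates 1, 354 and 6, and robust estimates alone 1, 279 and 0, against 1, 238 and 0 as reported. Leaving out a library gave 0 calls for the interaction in each case.

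The log2 ratio of detected rows turned to −0.47 without thinning. Leaving out a library gave −0.72 to −0.46 for UMIs and 0.01 to 0.02 for thinned rows. The rod row set of 50 rows, planned as the main set, had a mean log2 ratio of rods to the next class of 1.67 in libraries that did not choose it, against 3.32 for 25 rows, 0.73 for 100 rows, 0.56 for 50 rows chosen in P17, 4.92 for the 14 rows and 5.31 for the 11 rows chosen at P12. The mean rod-cone correlation of 0.62 was 0.79 with unthinned sums. Rods were 89.2% of the 50 nearest cells. Rods and cones were compared within libraries, as given above. No paired analysis was possible because the cell-name suffixes carry no replicate numbers, so that libraries of different ages could not be paired by number.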
